A study of Mus musculus with 6 samples.

Results

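The genes described here encode 8 receptors through which neutrophils are called to, held in or moved through a tissue, namely Cxcr2, Cxcr4, Fpr1, Fpr2, Ccr1, Selplg, Ptafr and C5ar1. They were taken by gene name from the deposited expression table, in which each of the 8 names was carried by 1 of the 34709 genes. The table covers articular cartilage of 18-month-old male mice, with 3 libraries labelled KO and 3 labelled wildtype (WT), and the mice were C57BL/6J knockout animals and wildtype littermates per the study's methods. KO mice were a purchased line, and the sources used here name no promoter or Cre that would limit the deletion to a cell type, nor any treatment of these libraries' mice. Nothing in the sources says how many animals went into each library. The study compared the groups to find expression changes in aged cartilage that depend on the deleted gene.

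Neutrophils mature in bone marrow and leave it for the blood. CXCR4 binds CXCL12 from marrow stroma and holds neutrophils and their precursors in place, whereas CXCR2 binds CXC chemokines such as CXCL1 and CXCL2 and draws mature cells out. In a tissue, PSGL-1 (encoded by Selplg) catches on selectins so that the cell rolls along the vessel wall, and the formyl peptide receptors FPR1 and FPR2, the complement receptor C5AR1, the platelet-activating factor receptor PTAFR and the chemokine receptor CCR1 then guide it to its target. All members other than PSGL-1 are G protein-coupled receptors. Most of them are also found on monocytes or other leukocytes.

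The upstream sequences of 4 members are shown, since Cxcr2 and Cxcr4 had the highest and the lowest difference between the groups and Fpr1 and Fpr2 are neighbours. Fpr1 (chromosome 17, 17876471 to 17883940, minus strand) and Fpr2 (chromosome 17, 17887824 to 17893952, plus strand) point away from each other with 3883 bases between them. Cxcr2 lies on chromosome 1 at 74153989 to 74161246 (plus strand), and Cxcr4 on the same chromosome at 128588199 to 128592293 (minus strand). Positions are those of the deposited table and follow GRCm38. Each line gives the 250 bases before the gene start of RefSeq (GRCm38.p6), 5′ to 3′ on the strand of the gene. That start can differ from the positions above, and the windows of Cxcr2 and Fpr1 reach slightly into the gene as placed there. Capitals mark matches on either strand to GAGGAA (the core bound by the myeloid factor PU.1) or TTGCNNAA (C/EBP). They also mark TATAAA (the core promoter element bound by TBP) and GGGCGG (bound by Sp1).
Cxcr2 (chr1:74153744-74153993): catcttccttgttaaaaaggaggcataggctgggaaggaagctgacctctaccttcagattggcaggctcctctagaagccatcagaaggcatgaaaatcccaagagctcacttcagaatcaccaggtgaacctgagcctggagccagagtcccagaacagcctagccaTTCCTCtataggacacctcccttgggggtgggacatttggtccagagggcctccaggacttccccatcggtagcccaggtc
Cxcr4 (chr1:128592300-128592549): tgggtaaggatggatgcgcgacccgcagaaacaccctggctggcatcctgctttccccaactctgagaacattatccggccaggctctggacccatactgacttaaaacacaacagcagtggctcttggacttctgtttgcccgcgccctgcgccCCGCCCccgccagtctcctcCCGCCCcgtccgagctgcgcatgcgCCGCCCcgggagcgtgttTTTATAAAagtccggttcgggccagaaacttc
Fpr1 (chr17:17883940-17884189): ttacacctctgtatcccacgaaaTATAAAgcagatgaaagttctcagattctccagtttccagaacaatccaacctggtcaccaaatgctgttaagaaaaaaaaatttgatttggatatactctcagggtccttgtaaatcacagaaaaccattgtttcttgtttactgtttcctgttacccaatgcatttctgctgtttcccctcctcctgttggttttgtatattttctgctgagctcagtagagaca
Fpr2 (chr17:17887574-17887823): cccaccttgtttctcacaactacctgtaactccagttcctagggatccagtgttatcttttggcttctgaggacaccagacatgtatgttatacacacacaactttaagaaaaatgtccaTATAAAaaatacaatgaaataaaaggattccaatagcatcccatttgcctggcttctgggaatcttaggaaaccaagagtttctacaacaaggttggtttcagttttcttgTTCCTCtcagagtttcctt

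Of the 8 members, 7 matched an entry of the RefSeq promoter table, and Selplg did not. The C5ar1 window (16259339 to 16259588) lies mostly within the gene as deposited, which starts at 16259540 on the minus strand. GAGGAA was found upstream of Cxcr2, Fpr2, Ccr1 and Ptafr, which is 4 of these 7, and in 23.3% of the 32851 windows of the same length. TATAAA was found upstream of Cxcr4, Fpr1 and Fpr2 (12.4% of all windows), and in Cxcr4 it was matched on both strands at 30 to 32 bases before the gene start, where the matches overlap. GGGCGG was matched 3 times upstream of Cxcr4 and once upstream of Ptafr (32.7% of all windows). TTGCNNAA was found upstream of none of the 7 (9.56% of all windows). A match describes these letters alone.

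The libraries held between 52268311 and 63331135 counts, and each member had at least 1916 counts in every library, so counting error was small beside the differences between libraries. KO replicates 2 and 3 were far more alike than any other pair. Their squared differences were 6.10 times those of Poisson sampling (median over genes with 5000 to 50000 counts), against 73.8 to 597 times in the other 14 pairs. These multiples treat each deposited count as a single read pair, in every pair of libraries alike, which may not hold. KO replicates 2 and 3 were averaged and counted as 1 sample. The comparison therefore had 2 KO and 3 wildtype samples. KO replicate 1 stood apart from KO replicates 2 and 3 and near wildtype on the first principal component, so the differences of the receptors are also given without it. Markers of several tissues were present. Chondrocyte markers such as Prg4 (402 to 1034 FPKM over the libraries) and Col2a1 (12.4 to 21.3 FPKM) were detected. Of 11 chondrocyte markers, 3 (Col9a1, Matn1 and Matn3) lay below a mean of 0.5 FPKM. Summed levels of 15 neutrophil markers (27347 to 63016 FPKM) and 7 erythroid markers (24715 to 108070 FPKM) far exceeded that of the 11 chondrocyte markers (522 to 1207 FPKM). Prg4 alone carried most of the chondrocyte sum in every library.

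All 8 receptors were higher in KO, as were 47.5% of tested genes, and by mean FPKM they stood between the 72.0 percentile (Ptafr) and the 97.7 percentile (Fpr2) of tested genes. FPKM scales fragments by transcript length and library size, so levels on this scale can be compared between genes. In wildtype the order by mean FPKM was Cxcr4, Fpr2, Cxcr2, Ccr1, Selplg, Fpr1, C5ar1 and Ptafr. The libraries of Cxcr4 and Fpr2, and those of Ccr1 and Selplg, overlapped, and the other neighbours in this order did not. By the mean of the 3 KO libraries, Fpr2 came first, with all 3 libraries above those of Cxcr4, and Cxcr4, Cxcr2, Selplg, Ccr1 and Fpr1 followed with overlapping neighbours. With KO replicates 2 and 3 averaged, Selplg, Fpr1 and Ccr1 were at 55.3, 55.2 and 54.8 FPKM, so their order within KO was not resolved. C5ar1 and Ptafr were lowest in both groups.

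Receptors for chemokines were examined first. Cxcr2 had 43.5, 44.9 and 45.3 FPKM in wildtype replicates 1, 2 and 3, and 59.5, 110.1 and 118 FPKM in KO replicates 1, 2 and 3. All KO libraries were above wildtype, and KO replicates 2 and 3 were far above KO replicate 1. The means were 86.9 ± 38.7 FPKM in KO (SD, n = 2) and 44.6 ± 0.945 FPKM in wildtype (SD, n = 3), and the log2 difference, KO minus wildtype, was 0.96 (SE 0.231, adjusted p-value 0.174 by edgeR), a 1.95-fold higher level. Ccr1, the receptor for CCL3, CCL5 and related CC chemokines (chromosome 9, 123962124 to 123968692), had 40.3, 41.6 and 36.4 FPKM in wildtype and 42.4, 66.9 and 67.7 FPKM in KO. KO replicate 1 was barely above the highest wildtype library. The log2 difference of Ccr1 was 0.48 (SE 0.183, adjusted p-value 0.312 by edgeR).

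Cxcr4 differed least of the 8. It had 91.8, 98.6 and 94.7 FPKM in wildtype and 114, 105 and 106 FPKM in KO, so the groups did not overlap but lay close together. KO replicate 1 was the highest library here, unlike in the other members, where KO replicates 2 and 3 were highest. The log2 difference was 0.23 (SE 0.137, adjusted p-value 0.545 by edgeR). Because Cxcr2 and Cxcr4 have opposing roles in the marrow, their ratio was taken in each library, a choice made after their values were seen. Cxcr2 FPKM divided by Cxcr4 FPKM was 0.473, 0.456 and 0.478 in wildtype, and 0.523, 1.04 and 1.11 in KO replicates 1, 2 and 3. The ratio was thus nearly constant in wildtype, slightly higher in KO replicate 1 and much higher in the other pair. Of 15372 genes divided by Cxcr4 in this way, 4.13% had both KO samples above all wildtype samples. Cxcr2 and Cxcr4 had the highest and the lowest difference of the 8, so their ratio restates those differences and this share does not test it.

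**Figure D1:**
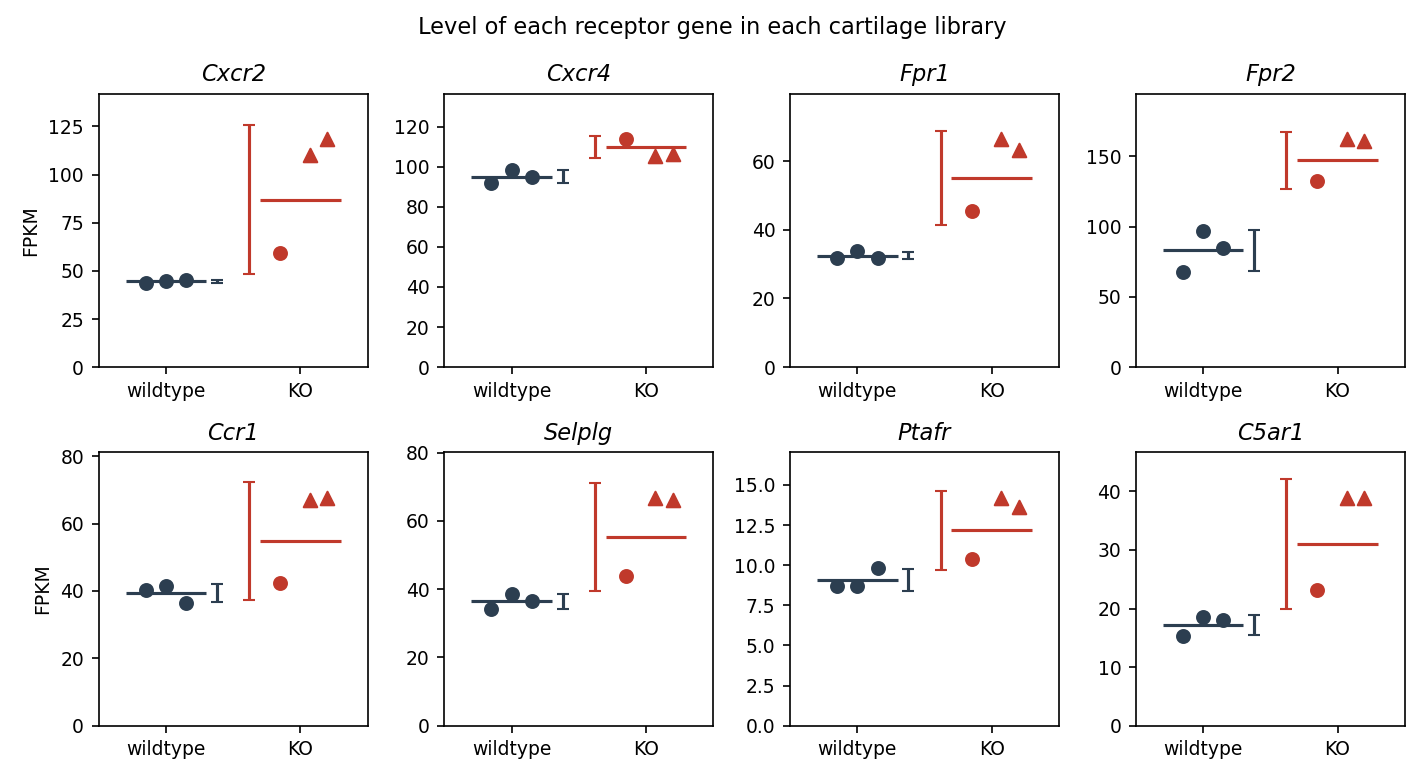
FPKM (y axis, linear from 0) of each of the 8 receptor genes in wildtype and KO libraries, with circles for single libraries, triangles for KO replicates 2 and 3 (averaged as 1 sample), horizontal lines for group means and brackets for ± 1 SD (n = 3 wildtype and n = 2 KO samples). In every panel the KO libraries lie above the wildtype libraries, and KO replicate 1 is the lowest KO library in all panels but that of Cxcr4.

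Formyl peptide receptors sense N-formylated peptides released by bacteria and by mitochondria of damaged cells, and FPR2 also binds lipids and proteins such as annexin A1. Fpr1 had 31.8, 33.8 and 31.9 FPKM in wildtype and 45.5, 66.4 and 63.2 FPKM in KO. The means were 55.2 ± 13.7 FPKM in KO (SD, n = 2) and 32.5 ± 1.12 FPKM in wildtype (SD, n = 3), and the log2 difference was 0.77 (SE 0.153, adjusted p-value 0.166 by edgeR). Fpr2 had 67.7, 96.8 and 84.6 FPKM in wildtype and 132.7, 162 and 161 FPKM in KO. Wildtype libraries spread more for Fpr2 than for Fpr1, but KO replicate 1 still lay well above them. The log2 difference of Fpr2 was 0.83 (SE 0.188, adjusted p-value 0.169 by edgeR). The Fpr2 to Fpr1 ratio of FPKM was 2.13 to 2.87 in wildtype and 2.44 to 2.92 in KO, which overlap. Fpr3, a paralog on the same strand whose annotated span overlaps Fpr2, had a mean of 0.0649 FPKM. How reads shared by the paralogs were assigned is not known, so the Fpr2 value is uncertain.

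C5ar1, the receptor for the complement fragment C5a (chromosome 7, 16246743 to 16259540), had 15.3, 18.5 and 17.98 FPKM in wildtype and 23.1, 38.9 and 38.8 FPKM in KO. All KO libraries were higher, those of replicates 2 and 3 by the most. Its log2 difference was 0.85 (SE 0.209, adjusted p-value 0.178 by edgeR). Ptafr, the receptor for the lipid mediator platelet-activating factor (chromosome 4, 132564067 to 132582683), had 8.68, 8.73 and 9.85 FPKM in wildtype and 10.4, 14.2 and 13.6 FPKM in KO. KO replicate 1 was close to wildtype replicate 3, and the log2 difference was 0.43 (SE 0.148, adjusted p-value 0.269 by edgeR). Selplg, the selectin ligand carried by most leukocytes (chromosome 5, 113818536 to 113830501), had 34.2, 38.6 and 36.6 FPKM in wildtype and 44.0, 66.9 and 66.2 FPKM in KO. Its groups did not overlap, and the log2 difference was 0.61 (SE 0.177, adjusted p-value 0.217 by edgeR).

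No member passed an adjusted p-value of 0.05 by edgeR, and neither did any other of the 15373 tested genes (0%), of which 2105 had an unadjusted p-value under 0.05. At that unadjusted level 7 of the 8 members were higher in KO, all but Cxcr4, and 0 were lower, against 7.63% higher and 6.06% lower among all tested genes. Both KO samples were above all 3 wildtype samples for 8 of 8 members in FPKM, against 12.5% of tested genes. The median log2 difference of the members was 0.69, and that of all tested genes was -0.02. With the 6 libraries as labelled, Cxcr2, Fpr1, Fpr2 and C5ar1 passed (4 of 8, log2 differences of 1.09, 0.84, 0.86 and 0.95), against 2.46% of genes called higher and 1.25% called lower in KO. Cxcr2 alone also had a log2 difference above 1, as did 0.416% of genes. Their adjusted p-values by edgeR were then 0.0433, 0.0358, 0.0391 and 0.0433, with Selplg at 0.0546. This fit counts KO replicates 2 and 3 separately. DESeq2 on the 5 samples called these 4 and Selplg, against 3.5% of genes called higher in KO (538 of 889 genes called). Neither alternative called Cxcr4, Ccr1 or Ptafr.

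The size of the differences depended on the KO libraries used. Without KO replicate 1 the log2 difference was 1.32 for Cxcr2, 1.13 for C5ar1, 0.96 for Fpr1, 0.92 for Fpr2, 0.83 for Selplg, 0.73 for Ccr1, 0.58 for Ptafr and 0.12 for Cxcr4. In that fit 1 KO sample is left and is assumed to vary like wildtype, and Cxcr2, Fpr1 and C5ar1 passed (adjusted p-values of 0.0274, 0.0361 and 0.0375 by edgeR), against 1.7% of genes called higher in KO. With KO replicate 1 alone against wildtype, where it is likewise assumed to vary like wildtype, the log2 differences were 0.75 for Fpr2, 0.56 for Fpr1, 0.50 for C5ar1 and Cxcr2, 0.35 for Selplg, 0.34 for Cxcr4, 0.28 for Ptafr and 0.18 for Ccr1. None of the 8 passed there (lowest adjusted p-value 0.399 by edgeR). The values from the separate KO samples lay closest together for Fpr2 and farthest apart for Cxcr2.

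**Figure D2:**
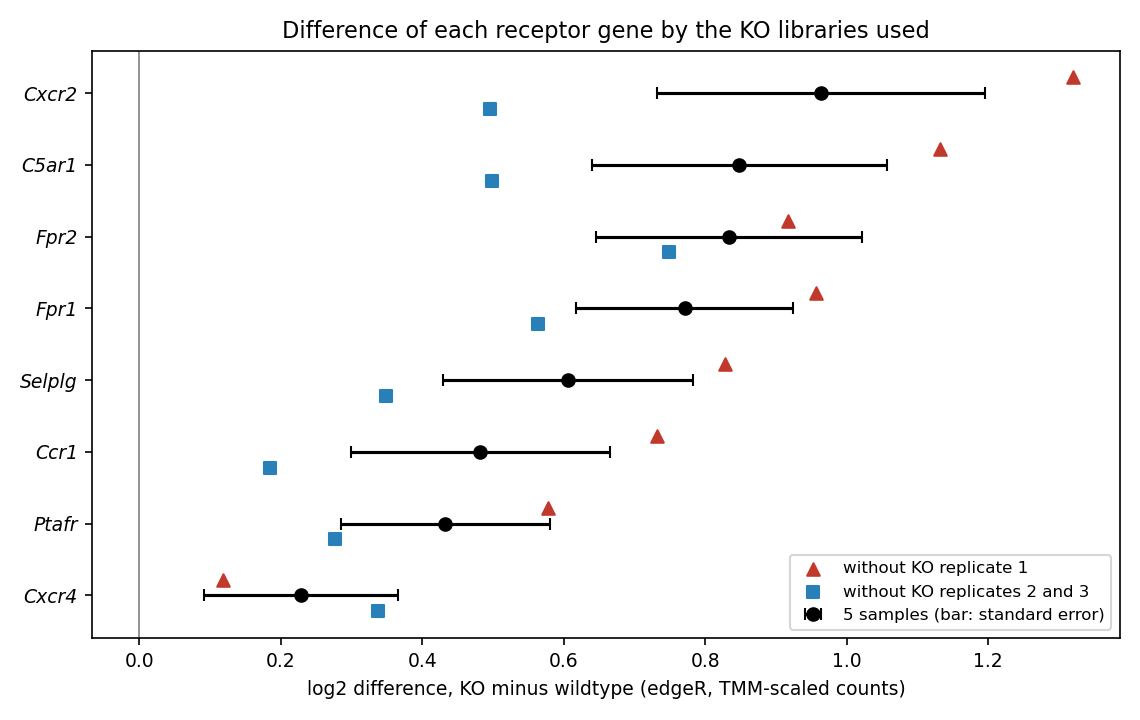
Log2 difference, KO minus wildtype, of each receptor gene (x axis) with all 5 samples (black circles, bars of ± 1 SE), without KO replicate 1 (red triangles) and without KO replicates 2 and 3 (blue squares). All values are above 0, from 0.12 for Cxcr4 without KO replicate 1 to 1.32 for Cxcr2 without KO replicate 1.

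Ligands of these receptors did not share their direction. Of 16 listed ligands, 11 were tested, 4 were higher and 7 lower in KO, 0 passed by edgeR, and the median log2 difference was -0.26. At an unadjusted p-value under 0.05, 2 were higher and 1 lower, against 7.63% and 6.06% of all tested genes. Cxcl1, Cxcl2, Cxcl3, Ccl7 and Hc, which encodes complement C5, were under the minimum of 0.5 FPKM and have no test. Cxcl12, the ligand of Cxcr4, had 178, 138 and 173 FPKM in wildtype and 114, 90.9 and 92.4 FPKM in KO, and the log2 difference was -0.63 (SE 0.231, adjusted p-value 0.294 by edgeR). All KO libraries were below all wildtype libraries, and the log2 difference was -0.87 without KO replicate 1 and -0.43 with it alone. Anxa1, whose product annexin A1 binds FPR2, had 262, 379 and 301 FPKM in wildtype and 557, 583 and 589 FPKM in KO, with a log2 difference of 0.87 (adjusted p-value 0.202 by edgeR).

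Genes that act downstream of the receptors had mostly higher values in KO. Of 21 listed signalling genes 18 were higher and 3 lower, none passed by edgeR, and the median log2 difference was 0.39. At an unadjusted p-value under 0.05, 12 were higher and 0 lower, against 7.63% and 6.06% of all tested genes. Plcb2, a phospholipase activated by G protein subunits, had 15.2, 15.1 and 15.9 FPKM in wildtype and 20.9, 29.4 and 29.2 FPKM in KO (log2 difference 0.71). Fgr, a Src-family kinase of myeloid cells, had 28.6, 31.0 and 32.3 FPKM in wildtype and 43.3, 62.4 and 64.7 FPKM in KO (log2 difference 0.81). Without KO replicate 1 the log2 differences were 0.89 for Plcb2 and 1.01 for Fgr, and with it alone 0.52 and 0.58. For both genes all KO libraries were above all wildtype libraries, and the adjusted p-value was 0.166 by edgeR. With the 6 libraries as labelled, 5 of the 21 passed, all higher in KO, against 2.46% of tested genes called higher. The enzymes that build selectin ligands on PSGL-1 were divided, with 6 of 10 higher and 4 lower and a median of 0.17. C1galt1c1, the chaperone of core 1 O-glycan synthase, was at a log2 difference of 0.50, whereas C1galt1, the synthase itself, was at -0.39 and the sialyltransferase St3gal6 at -0.40 (adjusted p-values of 0.208, 0.316 and 0.381 by edgeR).

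Other chemoattractant receptors went both ways, with 7 higher and 11 lower among 18 tested of 22 listed and a median log2 difference of -0.14. Of these, 3 were higher and 5 lower at an unadjusted p-value under 0.05 by edgeR, against 7.63% and 6.06% of all tested genes. Of the 22 names, Fpr-rs3 and Fpr-rs4 had no match, and Fpr3 and Ptgdr2 were under 0.5 FPKM. Ltb4r1, the leukotriene B4 receptor of neutrophils, had 34.1 FPKM in each wildtype library and 51.0, 64.9 and 64.2 FPKM in KO. Its log2 difference was 0.77 (SE 0.125, adjusted p-value 0.166 by edgeR). Among the 3 genes of this list with the smallest p-values, Cxcr5 and Ccr6 were lower in KO. Cxcr5 was at 3.29 to 4.77 FPKM in wildtype and 1.28 to 2.28 FPKM in KO (log2 difference -1.04), and Ccr6 at 1.17 to 1.53 FPKM in wildtype and 0.413 to 0.496 FPKM in KO (log2 difference -1.42), with adjusted p-values of 0.192 and 0.166 by edgeR. Without KO replicate 1 the log2 differences were 0.88 for Ltb4r1, -1.44 for Cxcr5 and -1.55 for Ccr6, and with it alone 0.66, -0.71 and -1.30. With the 6 libraries as labelled, Ltb4r1 and Ccr6 passed, against 2.46% of tested genes called higher and 1.25% called lower. The wider set of 75 genes annotated with neutrophil chemotaxis, members left out, had 51 tested genes, 27 higher and 24 lower, and a median of 0.02. At an unadjusted p-value under 0.05, 11 were higher and 1 lower, against 7.63% and 6.06% of all tested genes. By edgeR 0 passed, and with the 6 libraries as labelled 5 passed, all higher in KO, against 2.46% of tested genes. The genes of this set with the smallest p-values were Itgam, the alpha chain of the integrin Mac-1 (log2 difference 0.99), Csf3r, the G-CSF receptor (0.81), and Trem1 (0.70). Their adjusted p-values by edgeR were 0.174 to 0.183. Of its 75 genes, 15 also belong to another list used here.

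**Figure D3:**
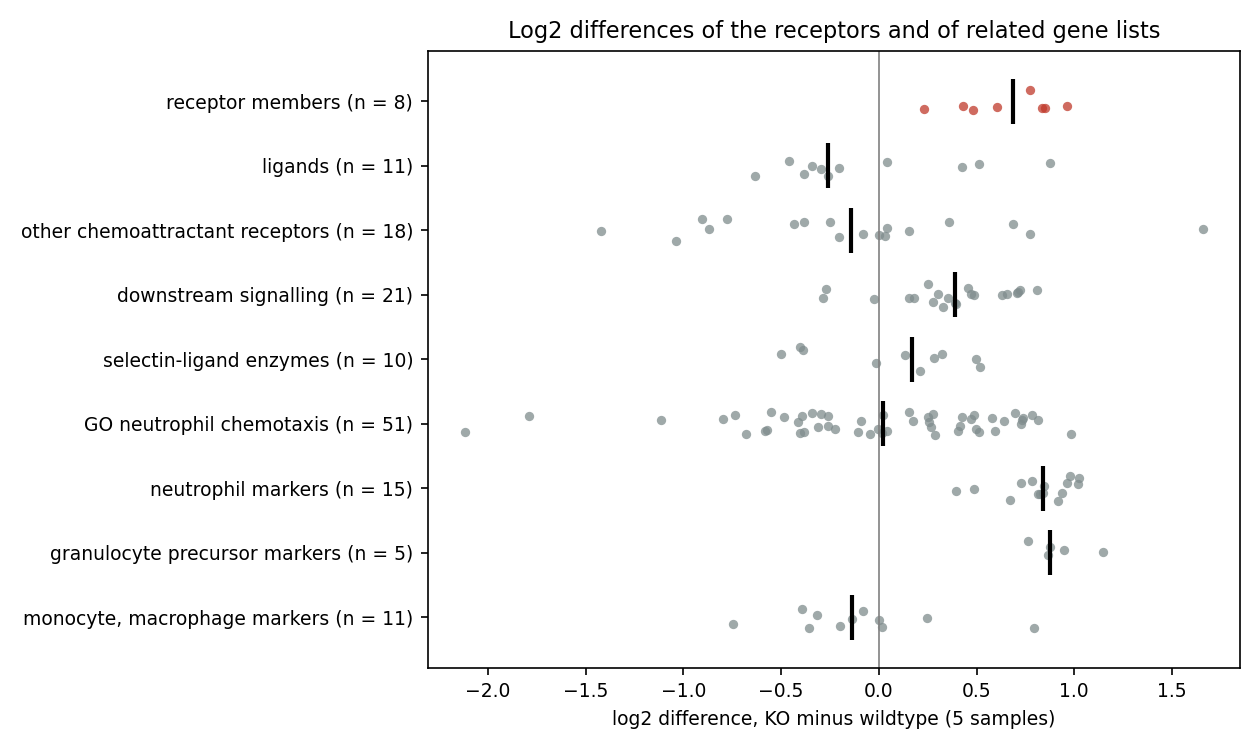
Log2 differences, KO minus wildtype (x axis, 5 samples), of single genes (points, spread vertically at random) in the 8 receptors (red) and in related gene lists (grey), with a black line at each median. The receptors, neutrophil markers and granulocyte precursor markers lie wholly above 0, with medians of 0.69, 0.84 and 0.88, while ligands, other receptors and monocyte and macrophage markers have medians below 0.

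Cell type markers were then set beside the receptors. All 15 neutrophil markers were higher in KO (10 of them at an unadjusted p-value under 0.05, median log2 difference 0.84). So were all 5 granulocyte precursor markers (5 of them at that level, median 0.88), and 0 of the 20 passed by edgeR. Among all tested genes, 47.5% were higher in KO, and 7.63% were higher at that unadjusted level. Cd177 (log2 difference 1.02), Mmp8 (0.96) and Cebpe (0.82) had the smallest p-values among neutrophil markers, and Prtn3 (1.15), Elane (0.87) and Mpo (0.95), which encode primary granule proteins, among precursor markers. Neutrophil markers summed to 27347, 44097 and 31167 FPKM in wildtype replicates 1, 2 and 3 and to 63016, 51358 and 52584 FPKM in KO replicates 1, 2 and 3, and none was at 0. S100a8, S100a9, Ngp and Camp, singled out after their values were seen, carried 88.0% to 91.8% of each sum. KO replicate 1 had the highest sum, but gene by gene 7 of the 15 markers were highest there among KO libraries, 7 were lowest there, as were 7 of the 8 receptors, and 1 lay between. The other 11 markers summed to 3099 to 3670 FPKM in wildtype and to 5157, 6179 and 6196 FPKM in KO replicates 1, 2 and 3. The precursor markers summed to 940, 1283 and 1031 FPKM in wildtype and to 1662, 2467 and 2442 FPKM in KO, where KO replicate 1 was the lowest KO library, as for 7 of the 8 receptors. Monocyte and macrophage markers summed to 493 to 586 FPKM in wildtype and 538 to 586 FPKM in KO, with 4 of 11 higher and a median of -0.14, led by Ly6c2 of classical monocytes (0.79) and the macrophage mannose receptor Mrc1 (-0.75). B cell markers were lower, 7 of 7, with a median of -1.35 and sums of 270 to 301 FPKM in wildtype and 84.9 to 135 FPKM in KO, and erythroid markers were lower, 7 of 7, with a median of -0.98. Erythroid markers summed to 71347 to 108070 FPKM in wildtype and to 60433, 24978 and 24715 FPKM in KO replicates 1, 2 and 3, and their median was -1.71 without KO replicate 1 and -0.44 with KO replicate 1 alone. The same medians were -1.74 and -0.95 for B cell markers, 0.75 and 0.90 for neutrophil markers, 1.04 and 0.72 for precursor markers and -0.26 and -0.01 for monocyte and macrophage markers. The part of these markers in the differences of the receptors was not tested. In bulk tissue, more cells of a type and more RNA per cell cannot be told apart.

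When each receptor was divided by the summed neutrophil markers of its library, a sum carried mostly by the 4 abundant genes, the groups overlapped for 7 of the 8. Cxcr4 was the exception, at 2.24 to 3.36 per 1000 FPKM of neutrophil markers in wildtype and 1.81 to 2.05 in KO. Of 15358 tested genes, 58.3% had both KO samples below all wildtype samples on this scale, so a lower value in KO was common. Cxcr2 was at 1.02 to 1.59 in wildtype, and 0.944, 2.14 and 2.25 in KO replicates 1, 2 and 3. In each of the 7 overlapping receptors, KO replicate 1 was below all wildtype libraries. That library had the largest sum of these markers, and a larger sum lowers every gene on this scale. KO replicates 2 and 3 were above all wildtype libraries for Cxcr2, Fpr1, Fpr2, Selplg and C5ar1, and within the wildtype range for Ccr1 and Ptafr. The shares of all tested genes in these positions were not taken, so these counts are a description only. With the sum of the other 11 markers, an alternative chosen after seeing the data, the groups overlapped for 6 of the 8. Cxcr4 (26.9 to 29.6 per 1000 FPKM of those markers in wildtype, 17.1 to 22.1 in KO) and Ptafr (2.38 to 2.88 in wildtype, 2.02 to 2.30 in KO) were lower in KO, against 80.5% of tested genes. On this second scale, KO replicates 2 and 3 were both above all wildtype libraries for Cxcr2 and C5ar1. They were not for Fpr1, Fpr2 or Selplg, with Fpr2 at 26.3 and 26.0 against 21.9 to 26.4 in wildtype.

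**Figure D4:**
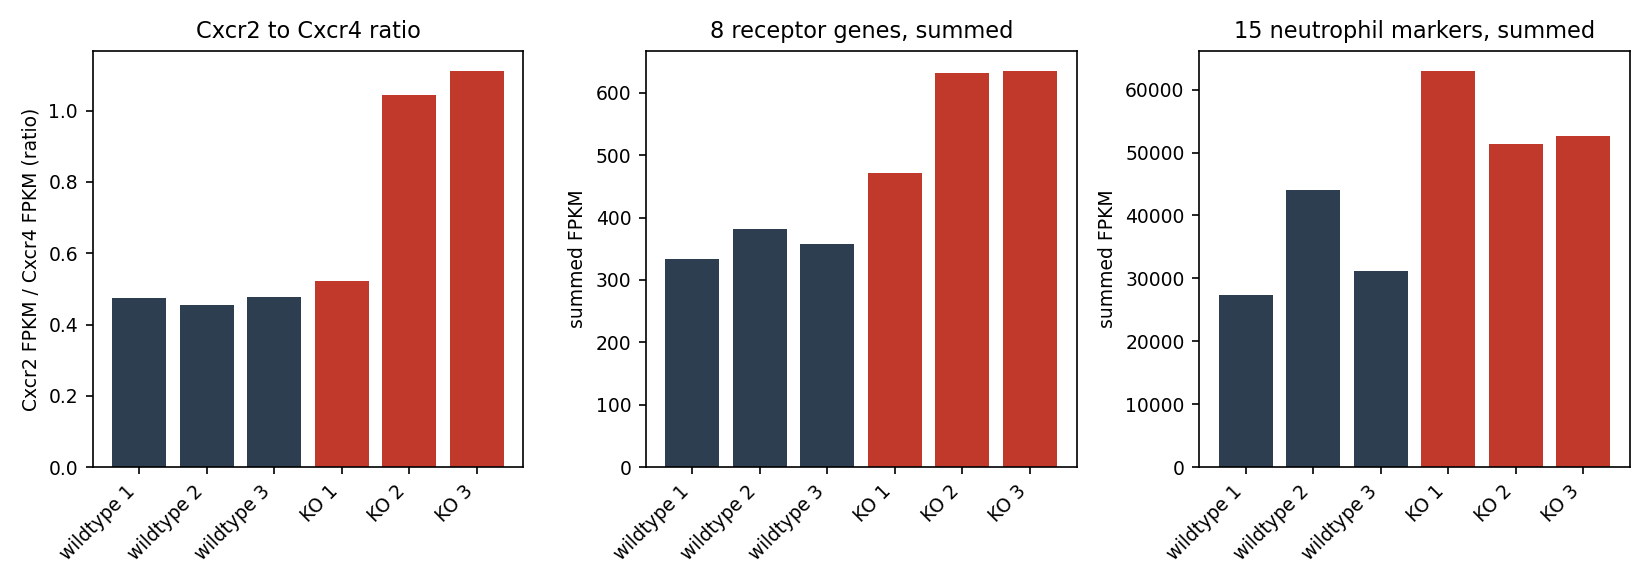
For each library (x axis), the ratio of Cxcr2 to Cxcr4 FPKM (left), the summed FPKM of the 8 receptor genes (middle) and the summed FPKM of the 15 neutrophil markers (right), as bars from 0 without error bars since each is 1 library. The ratio and the receptor sum are highest in KO replicates 2 and 3 (1.04 and 1.11, and 631 and 635 FPKM), while the sum of the neutrophil markers, carried mostly by S100a8, S100a9, Ngp and Camp, is highest in KO replicate 1 (63016 FPKM).

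Genes with the most similar profile were sought among 7606 genes averaging 5 FPKM or more, by the root mean square difference of log2 CPM over the 6 libraries after centring each gene. Nearest to Cxcr2 were G6pdx, which encodes the first enzyme of the pentose phosphate pathway (difference 0.0342), and Mpo, the myeloperoxidase of primary granules (0.0528). Nearest to Fpr1 were Gpi1, a glycolytic isomerase (0.0236), and Ckap4 (0.0256), and nearest to Fpr2 were Gm9733 (0.0386) and the lactate transporter Slc16a3 (0.0429). Fdps and Il1f9 were nearest to C5ar1, Tm6sf1 and Rnf144a to Selplg, Elmo2 and Gm10358 to Ptafr, Fbxl5 and Slc35a5 to Ccr1, and Clptm1l and Cuedc2 to Cxcr4, all at 0.0302 to 0.0441. Among the 8 members themselves, Fpr1 and Selplg were each other's nearest member (0.0896), as were Cxcr2 and C5ar1 (0.115), and Cxcr4 was farthest from the rest (0.236 to Ptafr).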

How the data were processed

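Messenger RNA of articular cartilage was captured on oligo(dT) beads and sequenced as strand-specific paired reads. The submitters' processing notes name cutadapt 1.9, HISAT2 2.0.4, UMI-tools and StringTie without roles. The authors deposited 1 table with an FPKM value and an estimated count per gene and library. The estimated counts were whole numbers as deposited and were not rounded, except where KO replicates 2 and 3 were averaged. Low values piled up at 4 (6596 values, against 4170 at 3 and 2332 at 5), so a count may not be a single read pair. Of the genes found in GENCODE M21 (GRCm38), 87.0% had the same position. Values of the deleted gene are left out, and the labels were not checked by them. All per-sample columns were used.

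Groups and replicate numbers came from the sample titles. The study's methods say in general that samples were independent, but the labels tie no library to an animal, so p-values measure the spread between these samples. Genes averaging 0.5 FPKM or more were tested with edgeR 4.0.16 (R 4.3.3, quasi-likelihood, TMM scaling, Benjamini-Hochberg adjustment over 15373 genes), with limma 3.58.1 and DESeq2 1.42.0 as alternatives, after tests on simulated data. A gene was called at an adjusted p-value under 0.05. SE is the log2 difference divided by the square root of edgeR's F. Log2 CPM had a prior count of 2. The genes named were the 8 members, in each list of related genes or markers the 3 with the lowest unadjusted p-values (some are not reported here), Cxcl12 and the 2 nearest profiles of each member. Other genes (chondrocyte markers, genes not tested and gene names not matched) were named after their values were seen. Members and lists were chosen with earlier results of these data known.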

Additional observations from a re-analysis of the deposited data

How the results depend on the processing

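All 8 members were above 0 in all 15 alternatives. With the 6 libraries as labelled, 570 genes and 4 members passed the threshold; with DESeq2, 889 and 5; and without a filter on low values, 21 and 0. Fits that left out 1 library gave 0 to 355 genes and 0 to 3 members, both highest without KO replicate 1, and without KO replicates 2 and 3 there were 9 genes and 0 members. The median log2 difference of the members was 0.42 without KO replicates 2 and 3 and 0.61 to 0.87 over the fits without 1 library. The cause of these changes was not tested. Median-of-ratios scaling, a minimum of 5 FPKM and limma with pseudocounts of 1 and 0.1 FPKM called 0 genes and 0 members.

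The replicate block, fitted on the 6 libraries as labelled, called 0 genes and 0 members, with a median log2 difference of the members of 0.75. Libraries with the same number did not deviate together (correlations across genes of -0.14, -0.10 and -0.056), so the numbers were not taken as pairs.

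With a minimum of 5 FPKM, where fewer genes are tested, the median log2 difference of other chemoattractant receptors was 0.64 and that of neutrophil chemotaxis genes 0.42; without KO replicate 1 they were -0.43 and -0.10. With 2 KO samples, 1 of which stands near wildtype on the first principal component, the spread within KO limits every test here. Leaving the 4 most abundant neutrophil markers out of their sum, a choice made after seeing the data, moved the receptors that did not overlap per summed markers from 1 to 2.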
